A study of Mus musculus with 8 samples.

Results

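Efferocytosis, the engulfment of dying cells, and scavenging, the uptake of modified lipoproteins and other debris, were examined through 10 genes in mouse bone marrow cells grown towards osteoclasts, the bone-resorbing cells of the monocyte lineage. The genes were taken from a list of names, drawn up with earlier results of these data known. They are the receptors *Mertk* and *Axl*, the ligands *Gas6* and *Pros1*, the bridging protein gene *Mfge8* and the scavenger receptor genes *Stab1*, *Cd36*, *Msr1*, *Cd163* and *Marco*. All 10 were found among the 21958 genes of the deposited tables and all 10 passed the filter on low counts in both experiments.

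Bulk RNA-seq was available from 8 libraries in 4 groups of 2. In the Arid1a experiment, *LysM-Cre;Arid1afl/fl* cells (cKO) were set against cells of genotype CONTROL. In the JQ1 experiment, wild-type cells given JQ1 were set against wild-type control cells. All cultures came from mice a few weeks of age and received M-CSF at 50 ng/ml, which monocytes need to survive, and RANKL at 100 ng/ml, which drives them towards osteoclasts. ARID1A is a subunit of the BAF chromatin remodelling complex. LysM-Cre is driven by the lysozyme M promoter and acts in myeloid cells, so cells of other lineages in a culture keep the gene. JQ1 is a small molecule that displaces BET proteins, readers of acetylated histones, from chromatin. The study calls the samples of the Arid1a experiment biologically independent. For the JQ1 libraries nothing in the sources used here says whether they came from separate animals or cultures, so their p-values measure only the spread between these libraries, which may be technical.

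A dying cell exposes phosphatidylserine on its surface. GAS6, protein S (the product of *Pros1*) and MFG-E8 (the product of *Mfge8*) bind this lipid and bridge the dying cell to receptors on the phagocyte. MERTK and AXL, together with TYRO3, form the TAM family of receptor tyrosine kinases. GAS6 activates all TAM receptors, whereas protein S acts on MERTK and TYRO3 and not on AXL. MFG-E8 works through the integrins αvβ3 and αvβ5. Stabilin-1 (*Stab1*) binds phosphatidylserine and also clears oxidised lipoproteins. CD36, SR-A (*Msr1*) and MARCO take up modified lipoproteins or microbes, and CD163 takes up haemoglobin bound to haptoglobin.

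The libraries held 15108239 to 17302136 counted reads. *Arid1a* had 2031 and 1888 reads in the cKO libraries and 2616 and 3554 reads in the control libraries. It fell by 0.65 ± 0.15 on the log2 scale (SE; edgeR quasi-likelihood test, Benjamini-Hochberg adjusted p = 0.00607). The floxed exons are only part of the gene, so gene-level reads check the label in part. The JQ1 table names its columns by codes, which were read as control and JQ1. *Hexim1*, which is known to rise under BET inhibition, had 1583 and 1882 reads in the libraries read as JQ1, against 878 and 854 reads in those read as control. Every direction given for JQ1 rests on that reading, and the libraries are called a and b because no label ties them to single samples. The Arid1a control libraries differed from each other more than any other pair, with a chi-square per degree of freedom of 16.1 over genes, against 2.64 to 3.82 in the other 3 groups.

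Promoter sequence was looked up to show what lies before the start of these genes. The 4 stretches below were chosen because *Mertk* moved the same way in both experiments, *Axl* and *Gas6* were called in opposite directions, and *Marco* is a scavenger receptor for contrast. Each is the 250 bases before the RefSeq start, 5′ to 3′ on the gene's strand. The build is GRCm38.p6, older than that of the count tables. Capitals mark matches to the GC box letters GGGCGG on either strand, where the reverse strand reads CCGCCC. The positions are chr2:128698665-128698914 (plus strand) for *Mertk*, chr7:25788734-25788983 (minus strand) for *Axl*, chr8:13494536-13494785 (minus strand) for *Gas6* and chr1:120505025-120505274 (minus strand) for *Marco*.
Mertk: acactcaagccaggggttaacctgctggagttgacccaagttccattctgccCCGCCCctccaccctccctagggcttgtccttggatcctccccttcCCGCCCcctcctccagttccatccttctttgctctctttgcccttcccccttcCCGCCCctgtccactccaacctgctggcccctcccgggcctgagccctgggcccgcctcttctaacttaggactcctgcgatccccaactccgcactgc
Axl: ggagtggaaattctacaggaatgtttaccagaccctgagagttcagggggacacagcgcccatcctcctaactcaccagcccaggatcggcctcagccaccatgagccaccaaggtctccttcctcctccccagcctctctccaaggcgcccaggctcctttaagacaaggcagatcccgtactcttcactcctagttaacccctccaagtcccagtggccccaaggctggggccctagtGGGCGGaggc
Gas6: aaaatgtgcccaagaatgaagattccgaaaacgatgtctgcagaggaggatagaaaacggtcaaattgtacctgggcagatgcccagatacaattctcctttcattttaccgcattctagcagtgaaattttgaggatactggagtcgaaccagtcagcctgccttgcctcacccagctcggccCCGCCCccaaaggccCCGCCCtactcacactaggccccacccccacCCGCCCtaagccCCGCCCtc
Marco: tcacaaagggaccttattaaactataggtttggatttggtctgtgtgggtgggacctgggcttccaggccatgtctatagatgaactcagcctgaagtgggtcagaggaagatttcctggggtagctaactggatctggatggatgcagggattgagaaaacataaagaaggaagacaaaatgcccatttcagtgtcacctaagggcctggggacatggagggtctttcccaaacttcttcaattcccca

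A promoter was matched for 9 of the 10 genes. The GC box letters stood in 6 of the 9, against 32.7% of all 32851 promoters of the same length. These 6 were *Pros1* with 5 matches, *Gas6* and *Mfge8* with 4 each, *Mertk* with 3, *Cd36* with 2 and *Axl* with 1. The letters were thus present before all 5 TAM and bridging genes and absent before *Stab1*, *Cd163* and *Marco*. The same 5 promoters had a GC content of 54.8% to 65.2%, against a median of 52.4% over all promoters. Among the scavenger receptors, *Stab1* lay within that range at 57.2%, while *Cd36*, *Cd163* and *Marco* had a GC content of 43.2%, 36.8% and 47.6%. On both strands, the letters GAAANNGAA (the core of an interferon response element), TGANTCA (AP-1) and GAGGAAGT (PU.1) were in 0 of the 9, against 7.13%, 6.75% and 2.44% of all promoters. The MAF recognition letters TGCTGA stood before *Cd36* and *Stab1* (16.1% of all promoters) and the nuclear receptor recognition letters AGGTCA before *Cd36* alone of the 9 (14.02% of all). Matches to different motifs did not overlap in these promoters. A match of letters is a description and not evidence that a factor binds.

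The genes spanned a wide range of levels. FPKM (fragments scaled to gene length and to library size) allows levels to be compared between genes. *Cd36* stood first in all 4 groups, at 264 ± 5.91 FPKM in cKO cells and 259 ± 12.7 FPKM in their controls, and at 307 ± 7.84 FPKM in JQ1 cells and 281 ± 6.84 FPKM in their controls (SD, n = 2 each). *Cd36*, *Msr1* and *Stab1* together held 84.2% to 84.3% of the summed FPKM of the 10 genes in cKO libraries and 81.5% to 83.4% in their controls, and 66.7% to 68.3% in JQ1 libraries and 74.2% to 75.3% in their controls. These 3 scavenger receptors thus held most of the summed level of the set in every library.

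**Figure D1:**
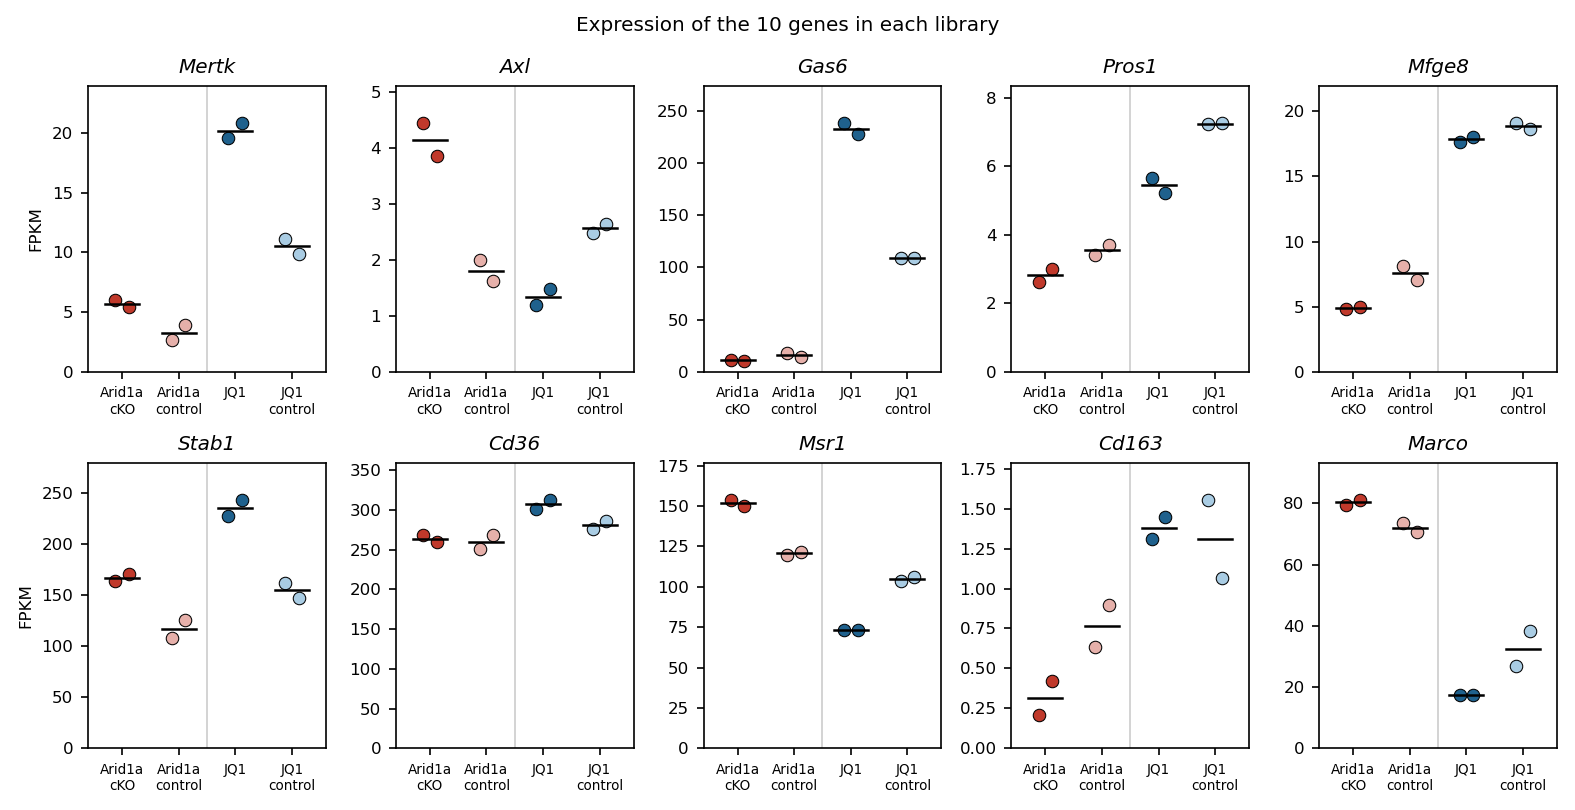
Expression in FPKM (linear axis from 0, scaled for each gene) in the 2 libraries of each group, with each circle a library and each bar the group mean. *Mertk* and *Stab1* are higher in both perturbed groups than in their controls, *Axl* and *Msr1* are higher in cKO and lower in JQ1 cells, and *Gas6* is lower in cKO and higher in JQ1 cells.

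In cKO cells the order below *Cd36* was *Stab1* (167 FPKM), *Msr1* (152), *Marco* (80.4), *Gas6* (10.9), *Mertk* (5.71), *Mfge8* (4.93), *Axl* (4.15), *Pros1* (2.82) and *Cd163* (0.317). No neighbours in this order overlapped between their libraries. In the Arid1a controls *Msr1* (121 FPKM) and *Stab1* (117 FPKM) overlapped, as did *Pros1* (3.55 FPKM) and *Mertk* (3.27 FPKM), and *Axl* stood at 1.80 FPKM. *Mertk* and *Axl* thus stood above *Pros1* in cKO cells, whereas in the controls *Axl* stood below it.

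In JQ1 cells *Stab1* (235 FPKM) and *Gas6* (233 FPKM) overlapped as the second and the third. They were followed by *Msr1* (73.0), *Mertk* (20.2), *Mfge8* (17.8), *Marco* (17.4), *Pros1* (5.44), *Cd163* (1.38) and *Axl* (1.33), with the last pair overlapping. In the JQ1 controls *Stab1* was at 154 FPKM, *Gas6* at 109 FPKM and *Msr1* at 105 FPKM. The control groups of the 2 experiments differed, for example in *Gas6* (16.4 FPKM in the Arid1a controls and 109 FPKM in the JQ1 controls). Their tables come from separate experiments, so no test was made between them.

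After Arid1a loss, *Mertk* and *Axl* rose while *Gas6* and *Mfge8* fell. Of the 10 genes, 4 were higher in cKO cells (*Mertk*, *Axl*, *Stab1*, *Msr1*), 3 were lower (*Gas6*, *Mfge8*, *Cd163*) and 3 were not called (*Pros1*, *Cd36*, *Marco*). The threshold for a call was 0.05 on the adjusted p-value, with adjustment over the whole table. Over the 11319 genes tested, 18.1% were called higher and 16.3% lower. The median log2 change was 0.16 over the 10 genes and -0.004 over all genes tested. Values below are CPM, in which each library is brought to the same size after TMM correction for its composition. CPM compares a gene between libraries and not with other genes. In bulk cultures, fewer cells of a type and less RNA per cell cannot be told apart.

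*Mertk*, a receptor for both ligands, had 26.6 and 24.1 CPM in cKO libraries and 11.3 and 16.4 CPM in control libraries. The cKO libraries lay above both controls, and the 2 controls differed more than the 2 cKO libraries. The change was 0.87 ± 0.18 on the log2 scale, or 1.83-fold (SE; edgeR quasi-likelihood test, Benjamini-Hochberg adjusted p = 0.00367).

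*Axl*, the TAM receptor that takes only GAS6, had 22.8 and 19.9 CPM in cKO libraries and 9.86 and 7.92 CPM in control libraries. Both cKO libraries were well above the controls. It rose by 1.26 ± 0.17 on the log2 scale, 2.40-fold (edgeR adjusted p = 0.000264). The ratio of *Mertk* to *Axl* in FPKM was 1.35 and 1.41 in cKO libraries and 1.33 and 2.41 in control libraries, which overlap.

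*Gas6*, the ligand of both receptors, had 30.1 and 26.8 CPM in cKO libraries and 45.7 and 36.3 CPM in control libraries. Both cKO libraries were below the controls. It fell by 0.53 ± 0.14 on the log2 scale (edgeR adjusted p = 0.0138). The call was lost without cKO replicate 2 (-0.45, edgeR adjusted p = 0.128).

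*Pros1*, the gene of protein S, had 11.0 and 12.6 CPM in cKO libraries and 13.8 and 14.7 CPM in control libraries. The groups did not overlap, but the difference of -0.27 was not called (95% interval -0.62 to 0.08; edgeR adjusted p = 0.219). *Mfge8*, whose protein bridges to the αv integrins, had 23.3 and 24.1 CPM in cKO libraries and 37.4 and 32.2 CPM in control libraries. It fell by 0.56 ± 0.13 on the log2 scale (edgeR adjusted p = 0.00661), and the call was lost without cKO replicate 1 (-0.53, edgeR adjusted p = 0.0667).

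Among the scavenger receptors, *Stab1* had 1720 and 1795 CPM in cKO libraries and 1096 and 1253 CPM in control libraries. The cKO libraries were clearly the higher pair, by 0.58 ± 0.09 on the log2 scale (edgeR adjusted p = 0.000749). *Msr1*, which encodes SR-A, had 997.7 and 976 CPM in cKO libraries and 748.2 and 750.1 CPM in control libraries. Each pair was tight and the difference was 0.40 ± 0.08 (edgeR adjusted p = 0.00326), yet the call was lost without cKO replicate 1 (0.38, edgeR adjusted p = 0.130) and without cKO replicate 2 (0.41, edgeR adjusted p = 0.0948).

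*Cd163*, the haemoglobin receptor and the least abundant of the 10, had 19 and 37 reads in cKO libraries and 56 and 74 reads in control libraries, or 1.18 and 2.37 CPM against 3.41 and 4.76 CPM. It fell by 1.203 ± 0.372 on the log2 scale (edgeR adjusted p = 0.0294). At these counts the size is loose. Without cKO replicate 1 it was -0.78 (edgeR adjusted p = 0.201), without cKO replicate 2 it was -1.79, and without control replicate 2 it was -0.945 (edgeR adjusted p = 0.0542).

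*Cd36*, the fatty acid and oxidised lipoprotein receptor, had 982.9 and 954.9 CPM in cKO libraries and 884.8 and 936.6 CPM in control libraries. Its difference of 0.09 was not called (95% interval -0.09 to 0.27; edgeR adjusted p = 0.429). *Marco*, a class A receptor with a collagen-like domain, had 156.6 and 160.1 CPM in cKO libraries and 139.4 and 132.1 CPM in control libraries. Its difference of 0.22 was not called (95% interval 0.02 to 0.42; edgeR adjusted p = 0.0829). *Marco* passed without control replicate 1 (0.26, edgeR adjusted p = 0.000171) and without control replicate 2 (0.18, edgeR adjusted p = 0.00683), and *Cd36* without control replicate 2 (0.13, edgeR adjusted p = 0.00201), where the spread comes from the cKO pair alone.

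Under JQ1, *Mertk* and *Gas6* rose while *Axl* and *Pros1* fell. Of the 10 genes, 4 were higher in JQ1 cells (*Mertk*, *Gas6*, *Stab1*, *Cd36*), 4 were lower (*Axl*, *Pros1*, *Msr1*, *Marco*) and 2 were not called (*Mfge8*, *Cd163*). Over the 11352 genes tested, 19.3% were called higher and 20.5% lower. The median log2 change was 0.05 over the 10 genes and 0.003 over all genes tested.

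*Mertk* had 86.6 and 92.0 CPM in JQ1 libraries and 47.2 and 42.4 CPM in control libraries. Both JQ1 libraries were far above the controls, by 1.00 ± 0.08 on the log2 scale, 1.99-fold (edgeR adjusted p = 3.41e-22). *Axl* had 6.07 and 7.60 CPM in JQ1 libraries and 12.3 and 13.1 CPM in control libraries. It fell by 0.89 ± 0.17 (edgeR adjusted p = 7.23e-06). The FPKM ratio of *Mertk* to *Axl* was 16.5 and 14.1 in JQ1 libraries and 4.47 and 3.75 in control libraries, so that *Mertk* was the more abundant of the pair in both groups and by a wider margin in JQ1 cells.

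*Gas6* had 618.1 and 591 CPM in JQ1 libraries and 272.4 and 274.8 CPM in control libraries. It rose by 1.14 ± 0.05 on the log2 scale, 2.21-fold (edgeR adjusted p = 1.37e-42), and was the only one of the 10 genes called at a fold of at least 2 in this comparison. *Pros1* had 23.5 and 21.8 CPM in JQ1 libraries and 29.0 and 29.2 CPM in control libraries, and fell by 0.36 ± 0.11 (edgeR adjusted p = 0.00478). The FPKM ratio of *Gas6* to *Pros1* was 42.2 and 43.5 in JQ1 libraries and 15.1 in both control libraries. *Pros1* lost its call without JQ1 replicate b (-0.30, edgeR adjusted p = 0.0963).

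**Figure D2:**
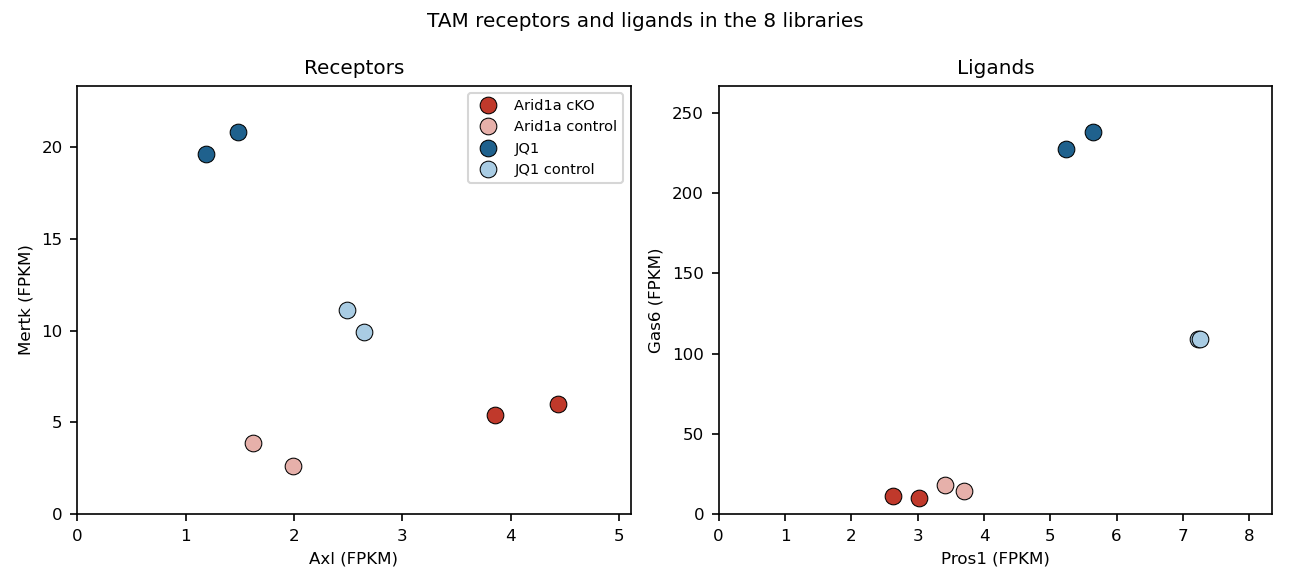
*Mertk* against *Axl* (left) and *Gas6* against *Pros1* (right), in FPKM on linear axes from 0, with each circle 1 of the 8 libraries. The cKO libraries lie at the right of the receptor panel (*Axl* 3.85 and 4.44 FPKM) and the JQ1 libraries at its upper left (*Mertk* 19.6 and 20.8 FPKM), while the JQ1 libraries stand apart at the top of the ligand panel (*Gas6* 228 and 238 FPKM).

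*Mfge8* had 84.3 and 86.4 CPM in JQ1 libraries and 87.7 and 86.2 CPM in control libraries. The groups overlapped and the difference was -0.03 (95% interval -0.17 to 0.11; edgeR adjusted p = 0.792). *Stab1* had 2380 and 2551 CPM in JQ1 libraries and 1632 and 1491 CPM in control libraries, and rose by 0.66 ± 0.05 (edgeR adjusted p = 9.68e-25). *Cd36* had 1102 and 1144 CPM in JQ1 libraries and 971.1 and 1012 CPM in control libraries. It rose by 0.18 ± 0.05 (edgeR adjusted p = 0.00101), a small change whose call was lost without JQ1 replicate b (0.16, edgeR adjusted p = 0.0769).

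Both class A scavenger receptors fell under JQ1. *Msr1* had 471.7 and 472.1 CPM in JQ1 libraries and 642.7 and 663.5 CPM in control libraries, and fell by 0.47 ± 0.05 on the log2 scale (edgeR adjusted p = 6.38e-15). *Marco* had 34.0 and 34.3 CPM in JQ1 libraries and 50.6 and 72.6 CPM in control libraries, and fell by 0.85 ± 0.12 (edgeR adjusted p = 9.31e-06). The 2 controls of *Marco* lay far apart, but both were above the JQ1 libraries. *Cd163* had 7.28 and 8.07 CPM in JQ1 libraries and 8.32 and 5.73 CPM in control libraries, which overlap, with a difference of 0.13 (95% interval -0.26 to 0.51; edgeR adjusted p = 0.637).

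The responses were then compared as a difference, the change in cKO cells minus the change in JQ1 cells, each against its own controls. Over the 11767 genes tested, 15.8% were called higher and 12.5% lower for this difference. Of the 10 genes, 3 had a more positive response to Arid1a loss (*Axl*, *Msr1*, *Marco*), 3 a more negative one (*Gas6*, *Mfge8*, *Cd163*) and 4 were not called. *Axl* and *Gas6* were called in opposite directions in the 2 experiments. Their differences were 2.15 ± 0.24 (edgeR adjusted p = 4.75e-06) for *Axl* and -1.67 ± 0.13 (edgeR adjusted p = 1.08e-07) for *Gas6*. *Msr1* was also called in opposite directions, with a difference of 0.86 ± 0.08 (edgeR adjusted p = 1.12e-06).

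*Marco* differed by 1.07 ± 0.17 (edgeR adjusted p = 0.000244), with a fall called only under JQ1. *Mfge8* differed by -0.53 ± 0.13 (edgeR adjusted p = 0.00704), with a fall called only in cKO cells. *Cd163* differed by -1.33 ± 0.42 (edgeR adjusted p = 0.0268), and its call was lost without any 1 of 4 libraries, at edgeR adjusted p up to 0.157.

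For 4 genes a difference was not called. *Mertk* rose in both experiments, and its difference was -0.12 (95% interval -0.53 to 0.28). *Stab1* rose in both, with -0.08 (-0.30 to 0.14). *Cd36* had -0.09 (-0.28 to 0.09) and *Pros1* 0.09 (-0.29 to 0.47). These intervals bound how far apart the responses may be and do not show that they are the same. Without Arid1a control replicate 1 the difference passed for *Mertk* (edgeR adjusted p = 0.0495) and *Stab1* (edgeR adjusted p = 0.0215).

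**Figure D3:**
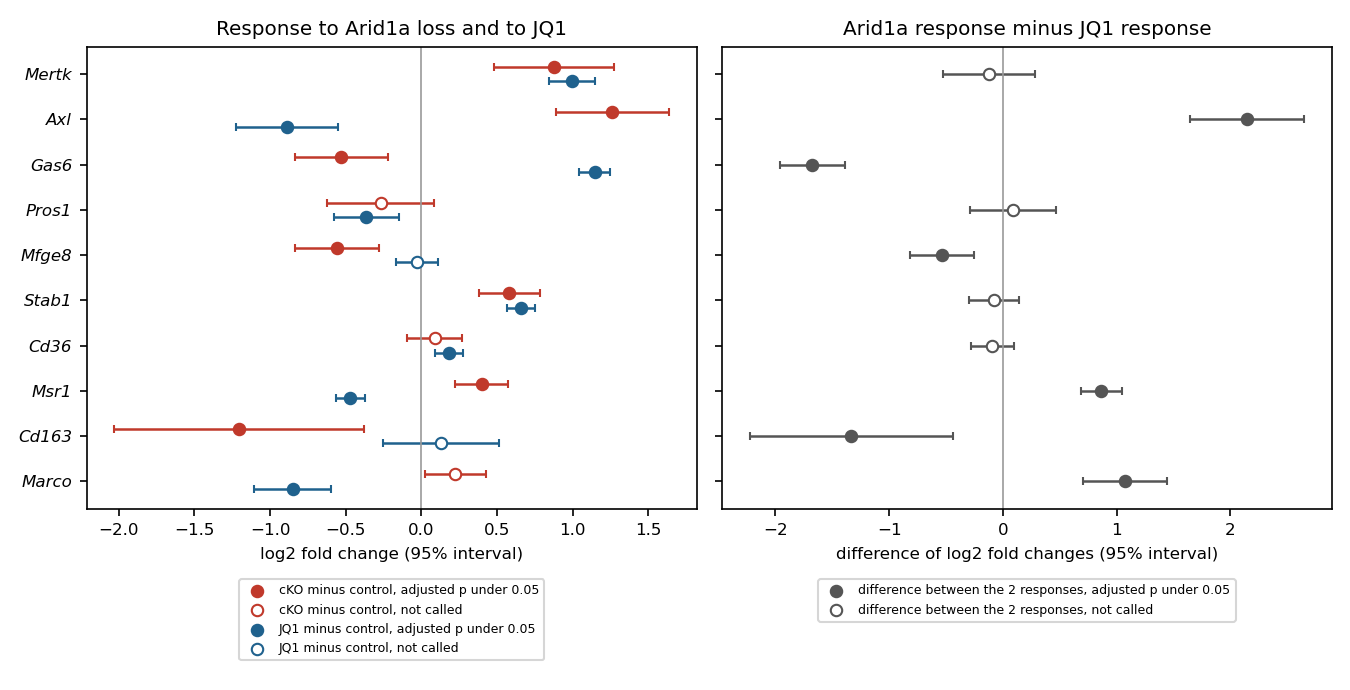
Left, log2 fold change of each gene with its 95% interval for cKO minus control (red, upper) and JQ1 minus control (blue, lower); right, the difference between these responses. Filled circles are genes with an adjusted p under 0.05, and *Axl*, *Gas6* and *Msr1* have filled circles on opposite sides of 0 in the left panel.

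The wider pathway was read from gene lists that do not hold the 10 genes, described by counts and medians. Each list gene given here as risen or fallen passed the edgeR test at an adjusted p under 0.05. Over all genes tested, 18.1% were called higher and 16.3% lower after Arid1a loss, and 19.3% and 20.5% under JQ1. Every list and marker count below stands against these shares, and a count near them is not a result about its list. The first list held other phosphatidylserine receptors and their partners. After Arid1a loss 8 of its 10 tested genes were higher and 0 lower (median log2 change 0.65). *Havcr2*, which encodes the phosphatidylserine receptor TIM-3, rose by 1.49 ± 0.09 and *Cd300lf*, an inhibitory receptor that binds the same lipid, by 1.27 ± 0.15. The integrin chain genes *Itgb5* and *Itgb3*, partners of αv in the receptors for MFG-E8, rose by 1.11 ± 0.10 and 2.19 ± 0.37. *Itgb3* was low, at a mean of 4.17 CPM in cKO cells and 0.90 CPM in their controls, so the size of its rise is loose. *Itgav*, the gene of the αv chain, rose by 0.54 ± 0.12. *Itgb3* is also an osteoclast marker. These receptor chains thus rose while *Mfge8* itself fell. Under JQ1, 5 of 11 were higher and 4 lower (median 0.07), with *Cd300lf* at -1.28 ± 0.09, *Havcr2* at -1.04 ± 0.08 and *Itgb5* at 0.45 ± 0.06. Of the other integrin chains, *Itgb3* rose by 0.53 ± 0.14 and *Itgav* fell by 0.22 ± 0.07 in JQ1 cells.

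Among other bridging and opsonin genes, 4 of 11 were higher and 3 lower after Arid1a loss (median -0.03), and 4 were higher and 6 lower of 11 under JQ1 (median -0.12). The complement C1q chains, which coat dying cells, moved in opposite directions. *C1qb* fell by 1.495 ± 0.116 and *C1qa* fell by 1.42 ± 0.13 in cKO cells, whereas under JQ1 they rose by 0.73 ± 0.05 and 0.62 ± 0.06. *C3*, the central complement opsonin, rose by 1.01 ± 0.08 in cKO cells and fell by 0.83 ± 0.06 under JQ1. *Sirpa*, the receptor of the CD47 signal that restrains engulfment, rose in both, by 1.05 ± 0.08 in cKO cells and 0.45 ± 0.05 in JQ1 cells. The difference between the responses was called for *C3* (1.84 ± 0.10), *C1qb* (-2.22 ± 0.13) and *C1qa* (-2.03 ± 0.15).

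**Figure D4:**
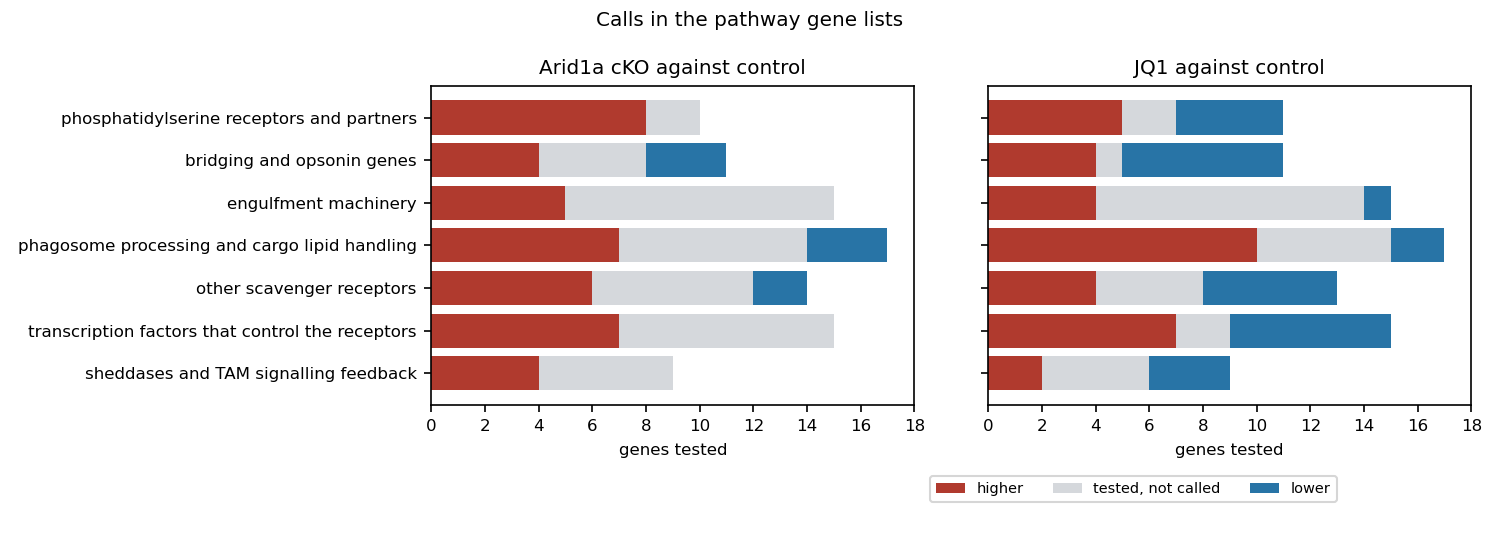
Number of tested genes higher (red), tested but not called (grey) and lower (blue) in each list, for cKO against control (left) and JQ1 against control (right). In the cKO comparison 4 of the 7 lists hold 0 lower genes, whereas under JQ1 every list holds both directions. Over all genes tested, 18.1% were higher and 16.3% lower in the cKO comparison, and 19.3% and 20.5% under JQ1.

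The engulfment machinery, which reshapes actin around the cargo, had 5 of 15 genes higher and 0 lower after Arid1a loss (median 0.17), led by *Vav3*, an exchange factor for RAC (0.97 ± 0.11). Under JQ1, 4 of 15 were higher and 1 lower (median 0.09), led by *Elmo2*, a scaffold of the RAC activator DOCK (0.38 ± 0.07). These counts were unstable. The cKO count was 2 without cKO replicate 1 or 2, 9 without control replicate 1 and 12 without control replicate 2, each with 0 lower, and the JQ1 count of both directions was 3 without JQ1 replicate b and 2 without JQ1 control replicate b. Phagosome and cargo lipid genes had 7 of 17 higher and 3 lower after Arid1a loss (median 0.21), and 10 of 17 higher and 2 lower under JQ1 (median 0.16). Under JQ1 these were 6 higher and 1 lower without JQ1 replicate b, and also with DESeq2. *Abca1*, which exports cholesterol, rose by 1.62 ± 0.13 in cKO cells, while *Abcg1*, another cholesterol exporter, fell by 0.87 ± 0.11. The lysosomal genes *Lipa* (acid lipase) and *Lamp2* rose in both experiments, by 0.67 ± 0.08 and 0.69 ± 0.08 in cKO cells and by 0.31 ± 0.04 and 0.28 ± 0.05 in JQ1 cells.

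Among other scavenger receptors and related genes, 6 of 14 were higher and 2 lower after Arid1a loss (median 0.40). *Clec7a*, the beta-glucan receptor, rose in both experiments, by 1.71 ± 0.13 in cKO cells and by 0.67 ± 0.09 in JQ1 cells. Under JQ1, 4 of 13 were higher and 5 lower (median 0.08), with *Mrc1*, the mannose receptor, up by 0.48 ± 0.05 and *Cxcl16*, a scavenger receptor for oxidised lipoprotein and a chemokine, down by 0.75 ± 0.08. *Cxcl16* had a difference between the responses of 1.46 ± 0.13.

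The transcription factors known to control these receptors had 7 of 15 genes higher and 0 lower after Arid1a loss (median 0.27), and 7 of 15 higher and 6 lower under JQ1 (median 0.01). Without cKO replicate 2, 4 were higher and 0 lower after Arid1a loss. *Nr1h3* encodes LXRα, which is known to drive *Mertk* and *Abca1*. It rose by 1.57 ± 0.14 in cKO cells and fell by 1.10 ± 0.16 in JQ1 cells, while *Mertk* rose in both and *Abca1* rose in cKO cells and fell by 0.50 ± 0.08 in JQ1 cells. *Abcg1*, the other cholesterol exporter, moved against *Nr1h3* in both. It fell by 0.87 ± 0.11 in cKO cells and rose by 0.41 ± 0.08 in JQ1 cells. A link of *Nr1h3* to these changes was not tested. *Maf* rose in both, by 1.19 ± 0.10 in cKO cells and 0.40 ± 0.06 in JQ1 cells. The metalloprotease genes *Adam10* and *Adam17*, whose products cut AXL and MERTK from the cell surface, rose by 0.99 ± 0.09 and 0.67 ± 0.08 in cKO cells. Of the sheddase and TAM feedback genes as a whole, 4 of 9 were higher and 0 lower in cKO cells, and 2 of 9 higher and 3 lower in JQ1 cells.

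Markers of the cell types in the cultures also changed, and not all in the same direction. Of 8 monocyte and macrophage markers, 6 were higher and 1 lower in cKO cells, and 3 were higher and 4 lower in JQ1 cells. *Cx3cr1*, a monocyte chemokine receptor, rose by 2.79 in cKO cells and fell by 0.87 in JQ1 cells. *Lyz2*, the lysozyme gene, went the other way, falling to 4493 CPM in cKO cells, against 11770 CPM in their controls, and reaching 17160 CPM in JQ1 cells, against 12830 CPM in their controls. The summed level of the 8 markers was 9856 to 9862 CPM in cKO libraries and 14010 to 16390 CPM in control libraries, and 20890 to 21570 CPM in JQ1 libraries and 16200 to 17200 CPM in control libraries. *Lyz2* was the largest part of this sum in every group, and the sum moved with *Lyz2*. In cKO cells the sum thus went against the count, in which 6 of the 8 markers were higher. Of the osteoclast markers, 1 of 7 was higher and 4 lower in cKO cells, and 1 of 6 higher and 5 lower in JQ1 cells. Without cKO replicate 2, 1 was higher and 2 were lower in cKO cells. *Calcr*, the receptor for calcitonin on mature osteoclasts, had 0 reads in all libraries.

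Neutrophil markers were higher for 8 of 9 in cKO cells and lower for 6 of 9 in JQ1 cells. In the Arid1a controls these 8 had means of 0.653 CPM (*Elane*) to 12.8 CPM (*Ngp*), so some of the calls rest on few reads. The summed level of the neutrophil markers was 247.8 to 273.2 CPM in cKO libraries and 144.5 to 150.9 CPM in control libraries. In the JQ1 experiment it was 36.4 to 36.9 CPM in JQ1 libraries and 91.0 to 91.3 CPM in control libraries. *Mmp8*, the tested marker not called in cKO cells, was a large part of this sum. Its means were 132.2 CPM in cKO cells and 122.6 CPM in their controls, and 14.2 CPM in JQ1 cells and 51.5 CPM in their controls. *Ly6g*, a defining neutrophil marker, had 0 reads in all 4 libraries of the JQ1 experiment and was too low to be tested in the Arid1a experiment. Stromal markers summed to 22.9 to 28.3 CPM in cKO libraries and 29.0 to 29.6 CPM in control libraries, and to 25.0 to 25.3 CPM in JQ1 libraries and 50 to 59.9 CPM in control libraries. Endothelial markers summed to 53.4 to 63.1 CPM in cKO libraries and 27.0 to 29.2 CPM in control libraries, and to 13.0 to 13.9 CPM in JQ1 libraries and 34.1 to 42.0 CPM in control libraries. *Kdr*, a VEGF receptor gene, carried most of this sum, with means of 56.7 CPM in cKO cells and 24.5 CPM in their controls. Of the 2 endothelial markers tested in cKO cells, *Kdr* was higher and *Cdh5*, the gene of VE-cadherin, was lower (-1.58), and all 3 tested in JQ1 cells were lower. Markers of B cells, T and NK cells and erythroid cells were at or below a summed 1.25 CPM in every library. The part of these cell types in the levels of the 10 genes was not tested.

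Some genes share exonic bases with a gene on the opposite strand in the GRCm39 annotation. The shared part was 8.82% of the exonic bases of *Mfge8*, 3.02% of *Mertk* and 2.80% of *Gas6*, the last with the protein-coding gene *Tmem255b*. *Stab1* shared 3.76%, 1.10% and 0.63% with 3 genes and *Pros1* shared 0.51%. The strand setting of the read counts is not given in the sources used here, so reads from these stretches cannot be told apart.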

How the data were processed

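Gene-level RNA-seq tables of 8 libraries were used. Per the labels and methods, the authors trimmed reads with Cutadapt, aligned them to GRCm39 with HISAT2 and obtained gene counts with HTSeq. The deposited counts are raw whole numbers. The deposited FPKM of the Arid1a experiment were computed by the authors from counts, gene length and library total, a relation that held within a relative deviation of 1.2e-07. For the JQ1 experiment FPKM was calculated here by that formula, and its 4 deposited FPKM columns were not used. Neither the annotation release nor the strand setting is given in the sources used here. Library totals were 15108239 to 17302136 reads, and counting precision is lowest where reads are few, as for *Cd163* and, under JQ1, *Axl*.

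Each experiment was fitted with its own controls in edgeR 4.0.16 (R 4.3.3), using the filterByExpr filter, TMM factors and the robust quasi-likelihood F test. The difference between the responses was an interaction in 1 fit over 8 libraries. Benjamini-Hochberg adjustment ran over every gene tested, with calls under 0.05. The standard error was taken as the log2 change over the square root of F. The biological coefficient of variation was 0.0874 (Arid1a), 0.047 (JQ1) and 0.0704 (8 libraries). The script was tested on simulated data.

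All 10 genes are described, and up to 4 tested genes of each list by smallest p. Some genes that this takes are not reported here. The 10 genes and the lists were chosen with earlier results of these data known, so they are not independent evidence. Of 158 list symbols, 1 was not matched (*Cd163l1*). Promoters are those of RefSeq (GRCm38.p6), and a promoter for *Msr1* was not used here. Exon overlaps came from the GENCODE annotation of GRCm39. Alternatives were DESeq2 1.42.0, limma-voom (limma 3.58.1), RLE and upper-quartile factors, other filters (1 CPM in 2 libraries, or none), a replicate block, other call rules, 1 fit over 8 libraries, TMM-scaled totals for FPKM and leaving out each library.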

Additional observations from a re-analysis of the deposited data

Results flagged for a closer look

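For 6 of the 10 genes the response to Arid1a loss differed from the response to JQ1 by a test of the difference itself (interaction in edgeR's quasi-likelihood model over 8 libraries, Benjamini-Hochberg adjusted over 11767 genes). Over all genes tested, 15.8% were called higher and 12.5% lower for this difference. The difference, the log2 change in cKO cells minus that in JQ1 cells, was 2.15 for *Axl*, -1.67 for *Gas6*, 1.07 for *Marco*, 0.86 for *Msr1*, -0.53 for *Mfge8* and -1.33 for *Cd163*. The changes in cKO and JQ1 cells were 1.26 and -0.89 for *Axl*, -0.53 and 1.14 for *Gas6*, and 0.40 and -0.47 for *Msr1*. For *Marco* they were 0.22 and -0.85, for *Mfge8* -0.56 and -0.03, and for *Cd163* -1.203 and 0.128. The signs for JQ1 rest on how the coded columns were read. The experiments also differ in their control groups, and the part of that difference in these values was not tested.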

How the results depend on the processing

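DESeq2, limma-voom, RLE and upper-quartile factors, both other filters and 1 fit over 8 libraries left the number of genes called at 7 of 10 after Arid1a loss and 8 of 10 after JQ1. All of these but the last were also run for the difference, and left it at 6. A fold of at least 2 with an unadjusted or an adjusted p left 2 genes after Arid1a loss and 1 after JQ1. Leaving out 1 library at a time gave 4 to 8 genes after Arid1a loss (4 without cKO replicate 1), 6 to 8 after JQ1 and 5 to 8 for the difference. The deviations of libraries with the same replicate number were nearly uncorrelated over genes (0.01 in the Arid1a and -0.02 in the JQ1 experiment). With 2 libraries per group this cannot exclude a pairing. With the replicate block the number of genes called stayed at 7, 8 and 6, while over all genes tested it was 4400 against 3892 without the block after Arid1a loss, 4129 against 4516 after JQ1 and 3330 against 3333 for the difference. Values that changed sign when 1 library was left out belonged to changes that were not called. *Cd163* under JQ1 ranged over -0.116 (without JQ1 control replicate b) to 0.426. The difference ranged over -0.013 (without cKO replicate 2) to 0.187 for *Pros1*, over -0.374 to 0.167 (without Arid1a control replicate 2) for *Mertk* and over -0.176 to 0.015 (without Arid1a control replicate 2) for *Stab1*. The cause was not tested. Of the 585 recomputed counts over the gene and marker lists, 67 moved by over 1.5 times. With TMM-scaled totals, 12 of 40 FPKM levels moved by more than the SD of their 2 libraries. With 2 libraries per group, small changes such as those of *Pros1* and *Cd36* lie near the limit of the test, and where a group was reduced to 1 library its spread was taken from the remaining groups.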

Other observations

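The 10 genes together held 0.389% and 0.390% of all counted reads in cKO libraries and 0.304% and 0.327% in their controls. In JQ1 libraries they held 0.473% and 0.491%, and in their controls 0.383% and 0.374%. The FPKM ratio of *Msr1* to *Marco*, both class A scavenger receptors, was 1.93 and 1.85 in cKO libraries and 1.63 and 1.72 in their controls, and 4.21 and 4.18 in JQ1 libraries and 3.85 and 2.77 in their controls.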
